A study of Mus musculus with 24 samples.

Results

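Respiratory complexes II to V were taken as every array probe whose gene symbol was Sdha, Sdhb, Sdhc or Sdhd, began with Uqcr or Atp5, or began with Cox followed by 4, 5, 6, 7 or 8. The symbol could come from the platform annotation or from the authors' summary table. The rule found 77 of 45281 probes, which belong to 48 of 27782 named genes. Complex II had 8 probes of 4 genes, complex III 11 probes of 8 genes, complex IV 25 probes of 18 genes and complex V 33 probes of 18 genes. Of these, 69 probes of 45 genes were above the array median in at least 6 arrays and were tested.

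These complexes sit in the inner mitochondrial membrane. Complex II, succinate dehydrogenase, oxidizes succinate to fumarate as an enzyme of the tricarboxylic acid cycle and passes the electrons to ubiquinone. Complex III hands them from ubiquinol to cytochrome c, complex IV passes them from cytochrome c to oxygen, and complexes III and IV pump protons whose return through complex V, the ATP synthase, drives ATP synthesis. The heart depends on this pathway for most of its ATP and is rich in mitochondria. Complex IV has subunits with a form found mainly in heart and skeletal muscle and a form found in most other tissues.

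RNA of the left ventricle of 24 male mice of a mixed genetic background, 1 Illumina array per heart, was measured in a series on dilated cardiomyopathy. The control group was 11 wild-type mice (WT) aged 27 to 33 weeks, with an ejection fraction (EF, the share of blood that the ventricle expels per beat) of 71.4 to 86.1%. The other 13 mice had a cardiac-specific knockout (KO) of EP4, the prostaglandin E receptor encoded by Ptger4, and were labelled by EF. The KO low EF group had 6 mice (27 to 33.5 weeks, EF 13.7 to 34%) and the KO high EF group 7 mice (27 to 33.5 weeks, EF 45.9 to 76.4%), so the highest EF of the latter lay within the WT range. The sources used here give neither the promoter that drove the recombinase nor whether WT mice carried it. Each array is labelled as a different mouse with its own age and EF, so p-values measure the spread between mice. In RNA of whole tissue, fewer cells of a type and less RNA per cell cannot be told apart.

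Of the 2 Ptger4 probes, the kept one differed from WT by -0.04 ± 0.14 (log2, SE) in KO low EF (n = 6, limma adjusted p = 0.901) and by 0.20 ± 0.13 in KO high EF hearts (n = 7, limma adjusted p = 0.338), and the other was not above the array median in enough arrays. Whether they lie in the deleted part was not examined. Cardiomyocyte markers were bright as the tissue label states, with 10 of 11 near the top of the scale. The array medians of raw intensity ran from 105.6 to 154.7. KO high EF replicate 11 stood apart. It correlated with the others by a median of 0.778, when each remaining array reached 0.968 to 0.986. Among 4245 probes over 10 (log2) on all other arrays, 688 (16.2%) lay more than 3 log2 units below every other array in it. The counts of called member probes are therefore given with and without it.

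In the respiratory genes, replicate 11 lost some probes and kept others. Of 48 member probes over 10 on all other arrays, 8 (16.7%) lay more than 3 log2 units below them, a share close to that of all probes. They were both probes of Uqcr10 and 1 probe each of Uqcr11, Cox6a1, Cox6a2, Cox6b1, Cox8b and Atp5l. The Cox6a2 probe read 8.17 (log2 normalized intensity) in replicate 11 and 15.89 to 16.02 in the others, and the Uqcr11 probe 6.90 against 15.54 to 15.88. Other probes of Cox6a1, Cox6b1 and Atp5l were not lost in the same array. Of these, the brightest Cox6b1 probe read 15.965 in it and at most 15.821 in the other KO high EF hearts. The second Atp5l probe read 13.419 in it and at least 13.895 in the other KO high EF hearts. A second Cox5b probe read 6.24 in replicate 11 and 5.83 in WT replicate 1, and 13.71 to 14.48 in the other 22 arrays.

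**Figure D1:**
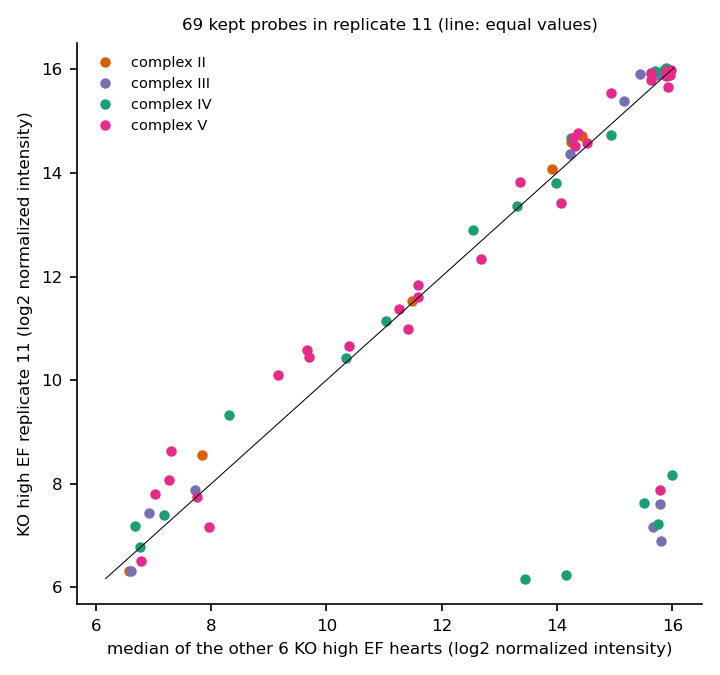
Log2 normalized intensity of the 69 kept probes in KO high EF replicate 11 (vertical) against the median of the other 6 KO high EF hearts (horizontal), coloured by complex, with a line at equal values. Most points lie along the line, while the 8 lost probes and the second Cox5b probe lie between 6.17 and 8.17 on the vertical axis.

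KO low EF hearts had lower RNA for many subunits of every complex. Of the 69 tested probes, 33 fell and 2 rose against WT (limma, adjusted p under 0.05 over all 25425 kept probes), when 12.3% of all kept probes fell and 12.1% rose. The median difference was -0.19 (log2) over the members and -0.01 over all kept probes. By gene, on the brightest kept probe, 25 of 45 fell and 2 rose. Without replicate 11, whose spread enters the common error, 37 probes fell and 3 rose (17.3% and 16.5% of all kept probes). In each of the 3 chips that held both groups, the sign was unchanged for all 35 called probes, and the members' median was -0.22, -0.19 and -0.26. These chips held 1 against 4, 2 against 3 and 3 against 1 hearts (KO low EF against WT). The probes were called on these same hearts, so the unchanged signs are no independent support. The chip was read from the prefix of the array label, and the labels do not say that this prefix names a chip.

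The complexes differed in how many of their tested probes fell. They were 5 of 6 in complex II (median -0.56), 4 of 10 in complex III (median -0.18), 7 of 22 in complex IV (median -0.09), where the 2 rises also were, and 17 of 31 in complex V (median -0.24). Probes of 1 gene share their transcript, and complex II rests on 3 tested genes. In each heart, the median deviation of the complex II probes from their WT medians was -0.56 to -0.47 in KO low EF, -0.37 to -0.08 in KO high EF and -0.16 to 0.14 in WT hearts. KO low EF hearts thus did not overlap with either other group for complex II. For complex III the ranges were -0.23 to -0.09 in KO low EF, -0.16 to 0.01 in KO high EF and -0.02 to 0.07 in WT hearts. For complex IV they were -0.22 to -0.06, -0.19 to 0.01 and -0.06 to 0.03, and for complex V -0.34 to -0.14, -0.25 to 0.01 and -0.06 to 0.03, in the same order. KO low EF and WT ranges did not overlap for any complex, narrowly so for complex IV, and KO low EF and KO high EF ranges overlapped for III, IV and V. These medians are descriptions, and the difference between complexes was not tested.

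**Figure D2:**
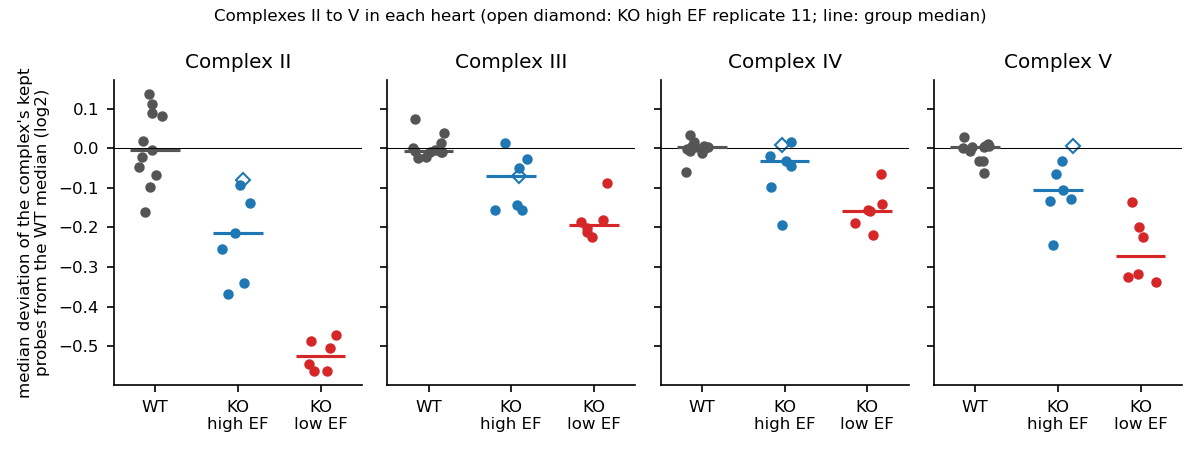
Each point is 1 heart, and the vertical axis is the median deviation (log2) of the kept probes of complex II (6 probes), III (10), IV (22) and V (31) from their WT medians, with group medians as lines and replicate 11 as an open diamond. KO low EF hearts are lowest for complex II, at -0.56 to -0.47.

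Complex II fell in all 3 of its measured genes. Sdhb carries the iron-sulphur clusters that take the electrons from the flavin, and its brightest probe read 14.37, 14.54 and 14.73 (lowest, median and highest log2 normalized intensity) in WT and 13.78, 13.95 and 14.12 in KO low EF hearts. The groups did not overlap, and the difference was -0.59 ± 0.08 (6 against 11 hearts, limma adjusted p = 4.3e-06). Its other 2 probes fell as well, by 0.58 and 0.50. Sdhc and Sdhd are the membrane anchors that bind ubiquinone and haem. Sdhc read 14.59, 14.74 and 15.30 in WT and 14.13, 14.23 and 14.45 in KO low EF hearts, again without overlap, and fell by 0.54 ± 0.09 (limma adjusted p = 7.4e-05). A dim second Sdhc probe, with a mean of 6.65, measured -0.15 and did not pass. Sdhd read 11.51, 11.71 and 12.19 in WT and 10.90, 11.04 and 11.20 in KO low EF hearts. Every KO low EF heart lay below every WT heart, and the fall of 0.73 ± 0.08 (limma adjusted p = 2.8e-07) corresponds to a normalized intensity that fell by 39.9%. Both probes of Sdha, the flavoprotein that oxidizes succinate, stayed near the dim end, at 5.92 to 7.09 over WT and KO low EF hearts, and were not tested.

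In complex III, 4 of 8 tested genes fell. Uqcrc1 and Uqcrc2 are the core proteins of its matrix side. Uqcrc1 read 15.35, 15.52 and 15.63 in WT and 14.75, 14.94 and 15.25 in KO low EF hearts, with no overlap, and fell by 0.55 ± 0.07 (6 against 11 hearts, limma adjusted p = 8.1e-07). Uqcrc2 read 15.48, 15.60 and 15.74 in WT and 15.23, 15.24 and 15.40 in KO low EF hearts and fell by 0.31 ± 0.07 (limma adjusted p = 0.0023), also without overlap. Uqcrb, a small subunit near the ubiquinone site, read 13.88, 14.37 and 14.53 in WT and 13.85, 13.92 and 14.22 in KO low EF hearts. These ranges overlapped, and Uqcrb fell by 0.36 ± 0.09 (limma adjusted p = 0.0033), a call that was lost when arrays were scaled to a common median, where the difference was as large and its error larger (-0.36 ± 0.18, limma adjusted p = 0.194). The fourth was a dim probe that the platform assigns to Uqcrq and the authors' table to UQCRB (-0.30), while the other Uqcrq probe measured -0.23 and passed only without replicate 11 (limma adjusted p = 0.0484). Uqcrh, the hinge protein at the cytochrome c1 side, measured -0.07, the dim probe of the Rieske iron-sulphur protein Uqcrfs1 0.02, and the small subunits Uqcr10 and Uqcr11 -0.03 and -0.12, none past the threshold. For Uqcr10 and Uqcr11 the lost signal of replicate 11 widened the error to 0.78 and 0.85.

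In complex IV, 7 of 16 tested genes fell (43.8%) and 2 rose (12.5%). Of all kept probes 12.3% fell and 12.1% rose, so the share of rises was near that of the whole array. Cox7b, a small structural subunit encoded on the X chromosome, read 10.53, 10.87 and 11.18 in WT and 10.01, 10.18 and 10.31 in KO low EF hearts. It did not overlap between these groups and fell by 0.72 ± 0.09 (6 against 11 hearts, limma adjusted p = 6.6e-07). Cox6c read 14.94, 15.25 and 15.38 in WT and 14.51, 14.72 and 14.85 in KO low EF hearts, also apart, and fell by 0.50 ± 0.07 (limma adjusted p = 7.6e-06). The other falls were in Cox7a1 and Cox7a2, described with the isoforms, in Cox7c (-0.19), in Cox7a2l (-0.26), a factor of the complex III and IV supercomplex, and in Cox6b2 (-0.36), the testis form of subunit VIb, whose probe is dim at a mean of 7.03. A second Cox6b2 probe did not pass (-0.06). Cox5a (-0.12) and Cox5b (-0.06), which lie at the matrix side, and Cox6b1 (-0.06), at the dimer interface, did not pass on their brightest probes. A second Cox6b1 probe, lost in replicate 11, measured -0.16 and passed without that array (limma adjusted p = 0.0441). The second probes of Cox5b and Cox7a2l measured 0.47 and 0.39, with errors of 1.12 and 0.95. The second Cox7a2l probe fell into a cluster at 8.53 to 9.13 in 9 hearts and one at 12.23 to 13.48 in 15 hearts, with WT, KO high EF and KO low EF hearts in both.

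Both rises were of subunit forms that most tissues use. Cox6a1, at the dimer interface, read 13.47, 13.62 and 13.98 in WT and 13.89, 14.05 and 14.25 in KO low EF hearts, ranges that overlapped, and rose by 0.40 ± 0.08 (6 against 11 hearts, limma adjusted p = 0.0004). A less bright Cox6a1 probe, lost in replicate 11, measured 0.45 and passed without that array (limma adjusted p = 5.2e-05), and the dimmest measured -0.05. Cox8a read 13.89, 14.12 and 14.35 in WT and 14.30, 14.40 and 14.45 in KO low EF hearts and rose by 0.25 ± 0.08 (limma adjusted p = 0.018), with a small overlap. Scaled to a common median, the rises were 0.39 (adjusted p = 0.0887) and 0.26 (adjusted p = 0.163), and with replicate 11 also left out that of Cox6a1 passed (adjusted p = 0.0046) and that of Cox8a did not (0.0615).

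**Figure D3:**
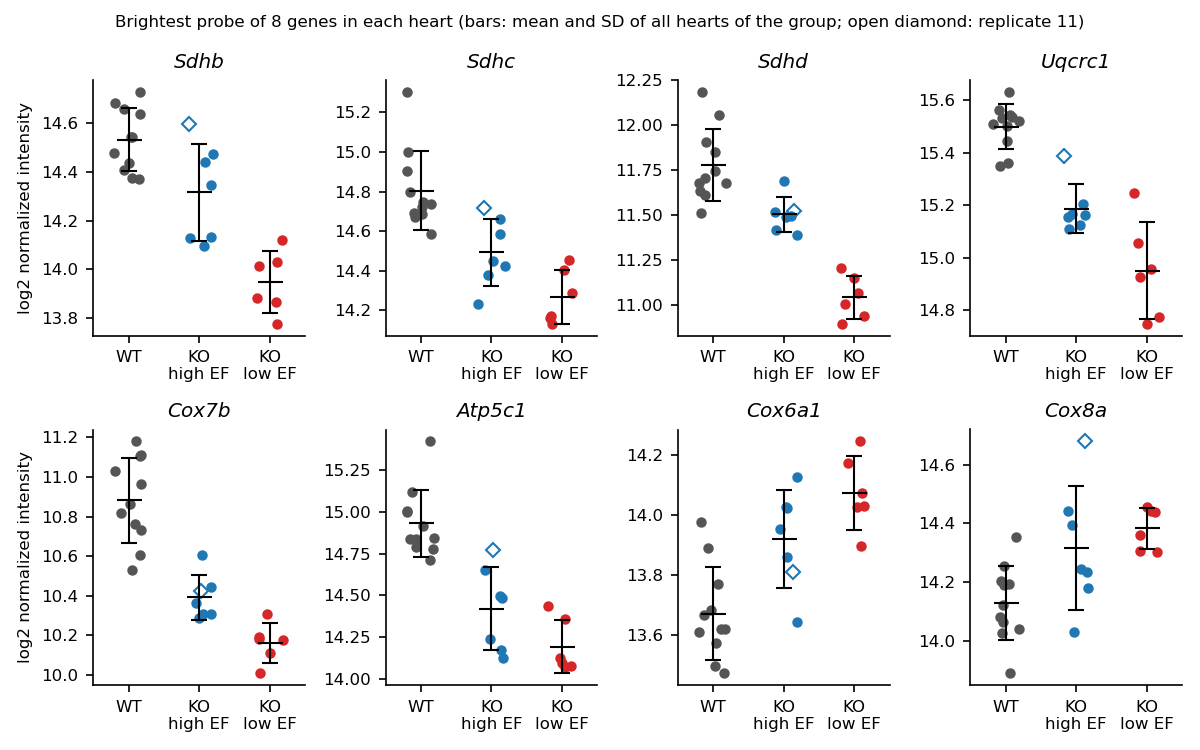
Log2 normalized intensity of the brightest probe of 8 genes, 1 point per heart, with the mean and SD of each group as bars and replicate 11 as an open diamond. The vertical axes differ by gene. Sdhb, Sdhc, Sdhd, Uqcrc1, Cox7b and Atp5c1 are lower in all KO low EF hearts than in any WT heart, and the KO low EF means of Cox6a1 and Cox8a lie above the WT means.

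Complex V had falls in every part of the enzyme, in 11 of 18 tested genes, and no rise (limma, 0 at an unadjusted p under 0.05 as well). In F1, the catalytic head, Atp5c1, the gamma subunit of the rotating shaft, read 14.71, 14.85 and 15.43 in WT and 14.07, 14.11 and 14.44 in KO low EF hearts. The groups were apart, and Atp5c1 fell by 0.74 ± 0.11 (6 against 11 hearts, limma adjusted p = 5.8e-06), and its normalized intensity fell by 40.2%. The shaft subunits Atp5e (-0.57) and Atp5d (-0.26) and the alpha subunit Atp5a1 (-0.54) fell too, and a dim second Atp5a1 probe (-0.31) passed only without replicate 11 (-0.32, limma adjusted p = 0.0175). The beta subunit Atp5b, on a probe near the top of the scale, measured -0.01. In the peripheral stalk, which holds the head still, Atp5pb read 14.41, 14.59 and 14.74 in WT and 13.88, 14.03 and 14.24 in KO low EF hearts. It fell without overlap by 0.53 ± 0.07 (limma adjusted p = 1.5e-06). Of its 3 further probes 2 fell, by 0.53 and 0.70, and the dimmest measured -0.15. The stalk subunit Atp5j fell by 0.24, with 1 more of its 3 probes, and Atp5o measured -0.08.

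In the membrane part of complex V, Atp5k (-0.43), Atp5md (-0.66) and Atp5mpl (-0.21) fell, while Atp5j2 measured -0.01. The Atp5l probe lost in replicate 11 measured 0.01 ± 0.76, a second -0.19 and the third fell by 0.45. Dmac2l, which the authors' table lists as ATP5S, is known as coupling factor B and is not a structural subunit. It read 10.57, 10.79 and 11.14 in WT and 9.88, 10.16 and 10.28 in KO low EF hearts, apart from each other, and fell by 0.65 ± 0.10 (6 against 11 hearts, limma adjusted p = 1.8e-05). Atp5h, the stalk's d subunit, shows how a gene's probes can differ: the probe with a mean of 15.98 measured -0.06 and did not pass, and the one with a mean of 15.07 fell by 0.45 ± 0.09 (limma adjusted p = 0.00052).

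Brightness bears on these counts. Normalized values ended at 16.04 (log2) on every array, and 37 of the 69 tested probes were among the brightest 1% of all probes, above 13.81. Of 26 member probes with a mean of 15 or more, 8 fell and the median difference was -0.09. Of 9 members between 14 and 15, 7 fell and 1 rose, with a median of -0.53. Of 16 members between 10 and 14, 11 fell and 1 rose (median -0.32), and of 18 under 10, 7 fell (median -0.21). Of all kept probes, 20% fell at 15 or more, 28.7% at 14 to 15, 22.6% at 10 to 14 and 9.53% under 10. Whether the brightest genes changed less or their probes could not show it was not tested.

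**Figure D4:**
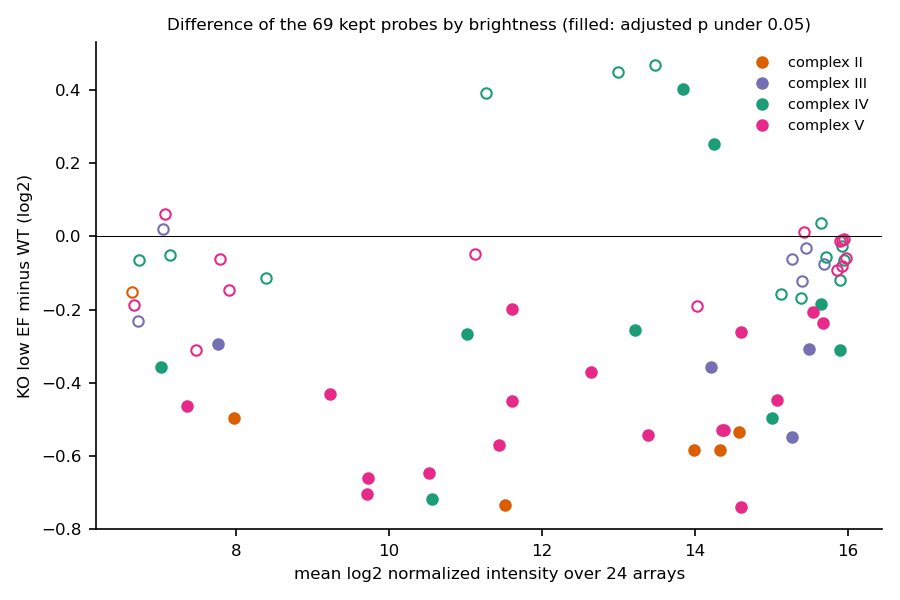
KO low EF minus WT (log2) of the 69 kept probes against their mean log2 normalized intensity over the 24 arrays, coloured by complex, with filled points for an adjusted p under 0.05. The 26 probes at 15 or more have a median of -0.09, and the 9 probes at 14 to 15 one of -0.53.

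KO high EF hearts showed fewer of these changes. Against WT, 12 member probes fell and 1 rose (5.9% and 8.5% of all kept probes), with a median of -0.10. Without replicate 11, 16 fell and 2 rose (9.57% and 9.43%), and the members' median was -0.09 against -0.01 for all kept probes. The sign was unchanged for all 13 called probes in each of the 4 chips, with 1 against 4, 1 against 3, 2 against 1 and 3 against 3 hearts. These probes too were called on the same hearts, so their signs are no independent support. Without replicate 11, the falls were 4 of 6 tested probes in complex II, 1 of 10 in III, 3 of 22 in IV and 8 of 31 in V, and both rises were probes of Cox6a1. The shares of complex III (10%) and IV (13.6%) were near the 9.57% of all kept probes that fell. Scaled to a common median with replicate 11 left out, 4 member probes fell and none rose (limma, 2 higher at an unadjusted p under 0.05).

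Among the named genes, Sdhd read 11.39, 11.49 and 11.69 in KO high EF hearts, which overlapped with WT, and differed from WT by -0.28 (7 against 11 hearts, limma adjusted p = 0.021). Uqcrc1 read 15.11, 15.16 and 15.39 and differed by -0.31 (limma adjusted p = 0.0013). Without replicate 11 its highest value was 15.20, below every WT heart. Cox7b read 10.29, 10.36 and 10.61 and fell by 0.49 (limma adjusted p = 0.00017), overlapping slightly with WT. Atp5c1 read 14.13, 14.48 and 14.77 and fell by 0.51 (limma adjusted p = 0.00075). Without replicate 11 its highest value was 14.65, also below every WT heart. Sdhc (-0.31), Cox6c (-0.29), Cox6b2 (-0.48), Atp5d (-0.21), Atp5pb (-0.24), Dmac2l (-0.34) and the second probes of Sdhb (-0.27) and Uqcrq (-0.27) made up the other falls. That of Uqcrq did not pass without replicate 11 (-0.23, limma adjusted p = 0.0793). The single rise was Cox6a1, which read 13.64, 13.95 and 14.13 and overlapped with WT (0.25, limma adjusted p = 0.028). The brightest Sdhb probe measured -0.22 (limma adjusted p = 0.063) and passed without replicate 11 (-0.26, limma adjusted p = 0.014).

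Few members separated the 2 KO groups. In KO low EF against KO high EF, 6 member probes were lower and none higher (1.99% and 0.932% of all kept probes were lower and higher), when 31 were lower and 0 higher at an unadjusted p under 0.05. Without replicate 11 the count was 3 lower and none higher (2.44% and 1.85%), and 23 and 0 unadjusted. Complex II gave 2 of them in both cases. Sdhd was lower in KO low EF hearts by -0.46 ± 0.09 (6 against 7 hearts, limma adjusted p = 0.0083, 0.0071 without replicate 11), and its ranges of 10.90 to 11.20 and 11.39 to 11.69 did not overlap. Sdhb was lower by -0.37 (limma adjusted p = 0.023, 0.031 without replicate 11), though in chip 1, with 1 heart of each group, it measured 0.02. With chip as a fixed block its call was lost (-0.28, limma adjusted p = 0.149, 0.0987 without replicate 11), and chip 4 held 3 KO high EF hearts and no KO low EF heart. The third was the second Atp5pb probe, which passed in both fits (-0.35, limma adjusted p = 0.019, with replicate 11 in the fit). Cox7a1 (-0.21), Cox7a2l (-0.29) and the brightest Atp5pb probe (-0.29) passed with replicate 11 in the fit and not without it, when they measured -0.18, -0.28 and -0.26 (limma adjusted p = 0.107, 0.0547 and 0.0533). With median scaling no member was called, with 1 lower at an unadjusted p under 0.05. The KO groups were formed by EF, and the comparisons of both with WT share the 11 WT hearts.

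The tissue forms of the subunits were compared by the difference of 2 probes within each heart. Such a difference is no level of one form against another, and where a probe lies near the top of the scale (16.04) it may not show unequal change either. Cox6a2, Cox7a1 and Cox8b are the heart and skeletal muscle forms, and Cox6a1, Cox7a2 and Cox8a are those of most other tissues. Cox4i2 is a form of subunit IV known from lung and from low oxygen, and Cox4i1 is the common one. Atp5g1, Atp5g2 and Atp5g3 encode the same mature c-ring protein with different import sequences. The 6 pairs in 3 comparisons gave 18 exact permutation tests over hearts, adjusted together.

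The start regions of 4 member genes show how they differ in sequence. The 4 are Sdhd, a membrane anchor of complex II that fell, both genes that rose, and the muscle form beside Cox8a. Each run is 250 bases before to 50 after the first listed start in RefSeq (GRCm38.p6), 5′ to 3′ on the gene's strand. Capitals mark the letters of 3 motifs on either strand: GCGC and GCGC with A and any base between them (NRF1), CCGGAA (ETS factors) and AAGGTCA (oestrogen-related receptors). The motif of MEF2, CTA and TAG with any 4 bases between them, was also searched. No 2 different motifs overlap in these runs.
Sdhd, chr9:50603800-50604099, minus strand: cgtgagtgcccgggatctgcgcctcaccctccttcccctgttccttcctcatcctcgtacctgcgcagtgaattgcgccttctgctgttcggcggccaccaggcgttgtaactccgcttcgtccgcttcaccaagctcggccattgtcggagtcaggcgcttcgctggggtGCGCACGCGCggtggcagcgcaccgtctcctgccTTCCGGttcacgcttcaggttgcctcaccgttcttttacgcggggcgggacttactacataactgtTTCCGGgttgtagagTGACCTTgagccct
Cox6a1, chr5:115348909-115349208, minus strand: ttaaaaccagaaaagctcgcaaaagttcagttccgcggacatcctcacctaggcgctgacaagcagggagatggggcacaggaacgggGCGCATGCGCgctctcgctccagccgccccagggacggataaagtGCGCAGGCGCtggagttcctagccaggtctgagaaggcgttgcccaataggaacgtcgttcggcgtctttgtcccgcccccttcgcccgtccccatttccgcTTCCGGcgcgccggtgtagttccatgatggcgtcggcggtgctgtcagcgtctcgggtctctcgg
Cox8a, chr19:7217567-7217866, minus strand: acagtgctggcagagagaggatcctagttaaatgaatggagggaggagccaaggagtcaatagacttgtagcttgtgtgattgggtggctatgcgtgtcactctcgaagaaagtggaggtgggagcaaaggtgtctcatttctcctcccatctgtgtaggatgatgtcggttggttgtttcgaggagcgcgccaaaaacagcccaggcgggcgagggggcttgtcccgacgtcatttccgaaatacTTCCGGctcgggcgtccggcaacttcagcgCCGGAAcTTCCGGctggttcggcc
Cox8b, chr7:140900397-140900696, minus strand: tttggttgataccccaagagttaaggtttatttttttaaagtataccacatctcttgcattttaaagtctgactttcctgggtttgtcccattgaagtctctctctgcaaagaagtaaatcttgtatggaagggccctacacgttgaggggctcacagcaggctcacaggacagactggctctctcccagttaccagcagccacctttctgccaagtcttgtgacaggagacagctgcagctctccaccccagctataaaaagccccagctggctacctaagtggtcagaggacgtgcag
In these windows Sdhd held 1 NRF1, 2 ETS and 1 oestrogen-related receptor match, Cox6a1 2 NRF1 and 1 ETS match, Cox8a 3 ETS matches and Cox8b none of the 4 motifs. No match says only that these letters are not in the window. Of the 48 member genes, 37 had an entry. NRF1 letters were in 9 of the 37 (24.3%) and in 4.78% of all 27025 promoters, ETS letters in 16 (43.2%) and 15.2%, oestrogen-related receptor letters in 5 (13.5%) and 4.66%, and MEF2 letters in 1 (2.7%) and 3.7%. Matches are descriptions and were not tied to the differences between groups.

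The probe difference was smaller in KO low EF than in WT hearts for 2 of the 3 muscle pairs. The difference Cox6a2 minus Cox6a1 was 1.92 ± 0.13 (log2, SD, n = 6) in KO low EF and 2.28 ± 0.16 (SD, n = 11) in WT hearts, a change of -0.37 (exact permutation, adjusted p = 0.0058). Cox8b minus Cox8a was 1.25 ± 0.09 in KO low EF and 1.68 ± 0.17 in WT hearts, a change of -0.42 (exact permutation, adjusted p = 0.0029). The KO low EF values of the latter ran from 1.12 to 1.38 and the WT values from 1.43 to 2.00, with no overlap. Within the 3 chips that held both groups the changes were -0.37, -0.29 and -0.48 for the first pair and -0.29, -0.54 and -0.64 for the second.

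By probe, the first change lay in Cox6a1, whose rise is given above. Cox6a2 read 15.89, 15.96 and 15.99 in WT and 15.90, 16.00 and 16.02 in KO low EF hearts, at the top of the scale, where a change may not show in full (0.04 ± 0.75, limma adjusted p = 0.984). Cox8b read 15.68, 15.80 and 15.92 in WT and 15.56, 15.65 and 15.70 in KO low EF hearts, also near the top. These overlapped narrowly, and the difference of -0.17 passed only without replicate 11 (6 against 11 hearts, limma adjusted p = 0.019). A rise of either muscle form like that of its partner may not show on such probes, so these differences do not show that the forms changed unequally.

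Of the third pair, both forms fell on their probes. Cox7a1 read 15.98, 16.01 and 16.04 in WT and 15.58, 15.69 and 15.84 in KO low EF hearts, without overlap, and fell by 0.31 ± 0.05 (6 against 11 hearts, limma adjusted p = 5.8e-05). Its WT values lie at the top of the scale, so this is the change that the scale can show. Cox7a2 read 10.94, 11.13 and 11.27 in WT and 10.66, 10.86 and 11.07 in KO low EF hearts, overlapping, and fell by 0.27 ± 0.07 (limma adjusted p = 0.0085, 0.626 with median scaling). Their difference changed by -0.04 (exact permutation over 6 and 11 hearts, adjusted p = 0.786) and with median scaling by -0.23 (exact permutation, adjusted p = 0.0961).

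Subunit IV did not pass on either form. Cox4i1 read 15.85, 15.94 and 16.01 in WT and 15.88, 15.90 and 15.98 in KO low EF hearts (-0.03 ± 0.04), and Cox4i2 8.18, 8.47 and 8.57 in WT and 8.22, 8.30 and 8.44 in KO low EF hearts (-0.11 ± 0.13). Both pairs of ranges overlapped, and the difference between the forms changed by -0.09 (exact permutation over 6 and 11 hearts, adjusted p = 0.384). With median scaling the sign turned to 0.17 (exact permutation, adjusted p = 0.0692), and Cox4i1 lies near the top of the scale.

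Among the c-ring genes, Atp5g2 fell. It read 12.61, 12.80 and 12.99 in WT and 11.84, 12.48 and 12.75 in KO low EF hearts, with overlap (-0.37 ± 0.11, limma adjusted p = 0.013, n = 6 and 11). Atp5g3 read 15.85, 15.96 and 16.02 in WT and 15.87, 15.93 and 16.00 in KO low EF hearts (-0.01 ± 0.04), and Atp5g1 15.81, 15.91 and 15.99 and 15.75, 15.79 and 15.85 (-0.09 ± 0.05), both overlapping and near the top of the scale, so that the pair differences do not tell whether these genes changed unequally. Atp5g2 minus Atp5g3 changed by -0.37 (exact permutation, adjusted p = 0.012) and Atp5g1 minus Atp5g3 by -0.09 (exact permutation, adjusted p = 0.043). The first ran from -0.98 in chip 1 to -0.09 in chip 2, and its call was lost with median scaling (-0.23, adjusted p = 0.165).

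In KO high EF hearts the isoform differences turned on replicate 11. With it, Cox6a2 minus Cox6a1 changed against WT by -1.33 and Cox8b minus Cox8a by -1.47 (exact permutation over 7 and 11 hearts, adjusted p = 0.015 and 0.019), with this heart at -7.93 and -9.13 from the WT mean through its lost Cox6a2 and Cox8b probes. Without it the changes were -0.24 (exact permutation over 6 and 11 hearts, adjusted p = 0.047) and -0.19 (adjusted p = 0.078). KO low EF against KO high EF gave 1.05 for Cox8b minus Cox8a with replicate 11 (exact permutation over 6 and 7 hearts, adjusted p = 0.998) and -0.23 without it (6 and 6 hearts, adjusted p = 0.047), so the sign turned. For Cox6a2 minus Cox6a1 these were 0.97 and -0.13, neither past the threshold.

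**Figure D5:**
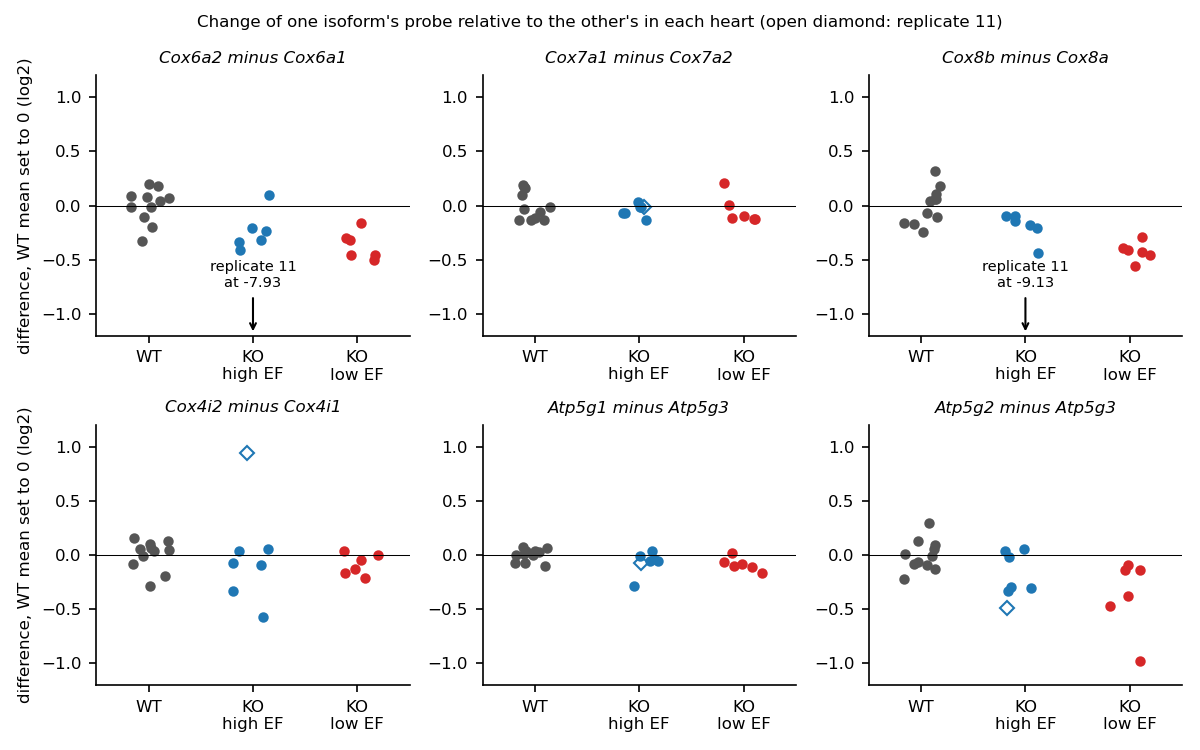
Difference between the log2 normalized intensity of 2 isoform probes in each heart, with the WT mean of each pair set to 0 and replicate 11 as an open diamond or, off the scale at -7.93 and -9.13, an arrow. KO low EF hearts lie below 0 for Cox6a2 minus Cox6a1 and Cox8b minus Cox8a and on both sides of 0 for Cox7a1 minus Cox7a2.

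A list of 51 assembly factors, electron carriers, mitochondrially encoded subunits and neighbours of the pathway had 44 genes tested, of which 21 were lower and none higher in KO low EF than in WT hearts (median -0.33), when 12.3% of all kept probes fell. Over all their 76 kept probes, 2 were higher at an unadjusted p under 0.05. Without replicate 11, 26 genes were lower and 1 higher, Cox19 (0.70), when 17.3% of all kept probes were lower and 16.5% higher. The smallest p-values belonged to Etfdh, which passes electrons of fatty acid oxidation to ubiquinone (-1.06 ± 0.09), Uqcc1, an assembly factor of complex III (-0.65 ± 0.07), Atpaf2, one of the F1 head (-0.54 ± 0.06), Coa7, an assembly factor of complex IV (-0.77 ± 0.09), and Etfb, a subunit of the flavoprotein that feeds Etfdh (-0.74 ± 0.09; limma adjusted p of the 5 from 6.4e-09 to 1.1e-06, 6 against 11 hearts). In KO high EF hearts 7 were lower and 1 higher than in WT, when 5.9% of all kept probes were lower and 8.5% higher. Between the KO groups, 8 were lower and none higher in KO low EF hearts, when 1.99% of all kept probes were lower and 0.932% higher.

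Most fibroblast and macrophage markers were higher in both KO groups than in WT hearts. Of 10 fibroblast markers, 8 rose in KO low EF hearts, when 12.1% of all kept probes rose and 12.3% fell. Their summed linear intensity ran from 41150 to 51680 in WT, 55050 to 74940 in KO high EF and 56770 to 84500 in KO low EF hearts. Of 10 macrophage markers, 9 rose, and the sum ran from 11200 to 15950, 21950 to 31860 and 27660 to 33050 in the same order. Both lists were also raised in KO high EF hearts (8 and 9 of 10), when 8.5% of all kept probes rose. Between the KO groups, 1 of 10 fibroblast and 0 of 10 macrophage markers were higher in KO low EF hearts, when 0.932% of all kept probes were. Of 11 cardiomyocyte markers 3 fell and 0 rose, with sums of 475200 to 517600 in WT and 463400 to 491300 in KO low EF hearts. Of the 11, 10 lie near the top of the scale, where a change may not show in full, so their sum may not either. Those that fell, Pln (-0.72), Ryr2 (-0.50) and Tnni3 (-0.59), were the dimmest of the 11, with means of 14.37, 14.09 and 13.74. None of 14 endothelial probes was called (limma, 1 lower at an unadjusted p under 0.05), and without replicate 11 Tie1 was lower (-0.20, limma adjusted p = 0.0332) and Vwf higher (0.83, limma adjusted p = 0.000158). In the fit of all arrays, 1 of 4 tested smooth muscle markers fell and 1 rose, 1 of 5 tested skeletal muscle markers rose, and no call was made among 4 tested fat markers. The part of these cell types in the members' differences was not tested.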

How the data were processed

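The authors deposited an unnormalized table of fluorescence intensity for 45281 probes, a normalized table on a log2 scale, and a summary table with log2 group means, other columns of group standard deviations and a p-value per probe. Per the submitters' processing notes, BeadStudio and R 2.8.0 were used. The sources used here do not give the transformation, background setting or test. Summary rows were linked to probes through equal group means (within 2e-06). The file headers name no genome build.

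With limma 3.58.1, intensities were background-corrected by normexp (offset 50), put on a log2 scale and quantile-normalized (R 4.3.3, data.table package, version 1.17.8). Probes above the array median in at least 6 arrays were kept (25425). Groups were compared with limma in 1 fit of 3 group means, two-sided, with Benjamini-Hochberg adjustment over all kept probes and a threshold of 0.05. Values are log2 differences ± SE unless an SD is named. The fit was tested on simulated data. Isoform pairs were tested by two-sided exact permutation over hearts. The number of arrays limits the precision.

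A gene's value is that of its brightest kept probe, and full values went to complex II, the 3 genes with the smallest p of each other complex, every rise and the isoform pairs. Members and lists were chosen with earlier results of these data known. Alternatives were leaving out replicate 11, median scaling, no background correction, the authors' values, no filter, chip or replicate blocks and array weights. The labels do not state that shared replicate numbers pair mice. Deviations of same-numbered arrays correlated by -0.0218 to 0.178 (KO low EF) and -0.043 to 0.131 (KO high EF), which cannot exclude pairing. Combinations with WT replicate 1, the authors' values or the chip block were added after the data were seen.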

Additional observations from a re-analysis of the deposited data

Results flagged for a closer look

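Single hearts stood apart from their group in 11 of 90 tests of a gene's brightest probe, when chance alone flags about 1 in 20. The measure is the gap to the nearest heart over the group's whole range. Replicate 11 of KO high EF gave 8 of them. It was low for Uqcr10 (7.61, gap 0.972), Uqcr11 (6.90, gap 0.972), Cox6a2 (8.17, gap 0.988), Cox8b (7.22, gap 0.971) and Atp5l (7.88, gap 0.987). It was high for Uqcrc1 (15.39, gap 0.658), Cox4i2 (9.33, gap 0.601) and Atp5k (10.10, gap 0.624). In the KO low EF group, replicate 4 was high for Uqcrb (14.22, gap 0.631), and replicate 5 was low for Cox6a2 (15.90, gap 0.732) and high for Cox7c (15.68, gap 0.701). The flags of the KO low EF group were about as many as chance alone would give. The cause of these deviations was not tested.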

How the results depend on the processing

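For KO low EF against WT, 25 to 45 member probes were called under all alternatives, against 35. The share of all kept probes called was worked out only for the main fit and without replicate 11. The other counts here therefore do not tell a change in the members from a change in all probes. For KO high EF against WT (13), the count was 18 without replicate 11, 4 with median scaling and replicate 11 left out, 21 with array weights, 20 with the authors' values and 21 with the chip block, both without replicate 11. For KO low EF against KO high EF (6), it was 3 without replicate 11, 0 with median scaling with or without it (limma, 1 and 15 at an unadjusted p under 0.05), 3 with no filter, 1 with the chip block with or without replicate 11, and 12 with array weights. The replicate block gave 30 calls for KO low EF and 0 for KO high EF against WT (8 lower and 1 higher unadjusted), and the same 10 arrays without the block also gave 0. Under the replicate block Cox8a measured 0.25 and did not pass (adjusted p = 0.0566). Only 1 of 6 and 1 of 5 WT arrays deviated most like the array of their own number. The KO groups share no numbers.

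Of the isoform pairs, Cox8b minus Cox8a in KO high EF against WT lost its call without replicate 11 (-0.19). In KO low EF against KO high EF the same pair turned from 1.05 to -0.23 without replicate 11. With median scaling, Atp5g2 minus Atp5g3 in KO low EF lost its call (-0.23) and Atp5g1 minus Atp5g3 in KO high EF gained one (-0.13). Within chips, values moved past the spread in KO low EF against WT for Cox7a1 minus Cox7a2 (-0.27), Cox8b minus Cox8a (-0.29 and -0.64), Atp5g1 minus Atp5g3 (-0.16) and Atp5g2 minus Atp5g3 (-0.98, -0.089 and -0.63). In KO high EF against WT they did for Cox7a1 minus Cox7a2 (0.085, -0.16 and -0.21), Cox4i2 minus Cox4i1 (-0.49), Atp5g1 minus Atp5g3 (-0.28) and Atp5g2 minus Atp5g3 (-0.45). Between the KO groups they did for Cox7a1 minus Cox7a2 (0.12), Cox4i2 minus Cox4i1 (0.39), Atp5g1 minus Atp5g3 (0.12) and Atp5g2 minus Atp5g3 (-0.68 and 0.19), and Sdhb (0.024) and Atp5pb (0.028) changed sign in chip 1. The causes were not tested.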
